A study of Arabidopsis thaliana with 6 samples.

Results

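EXORDIUM (EXO, locus AT4G08950) and its 7 paralogues EXL1 to EXL7 form a small Arabidopsis thaliana family of secreted proteins that share the domain of the tobacco phosphate-induced protein PHI-1. The 8 genes were chosen by locus. Only those read by a probe set to which the probe annotation assigns a single gene could be followed. That condition was met by 1 of the 8 genes, EXO, with a probe set of its own among 8298 probe sets with 1 named gene. The deposited probe sets that are not Affymetrix controls numbered 15177. EXL1 (AT1G35140, listed by RefSeq as PHI-1), EXL2 (AT5G64260), EXL3 (AT5G51550), EXL4 (AT5G09440), EXL5 (AT2G17230), EXL6 (AT3G02970) and EXL7 (AT2G35150) had no such probe set and were not analysed here. None of the probe sets with several genes included a locus of the family. The annotation gave no gene for 6513 probe sets, and whether any of these reads a paralogue was not tested. The results below are therefore values of 1 gene and not of the family. EXO was picked for its log2 difference between the treatments and its level in control leaves, so those values are given as a description, without a test.

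The EXO protein sits in the cell wall space. In Arabidopsis it is needed for cell expansion in leaves and roots, and its transcript rises with brassinosteroids, the steroid hormones of plant growth. Brassinosteroids are perceived at the cell surface by the receptor kinase BRI1 and act through the transcription factors BZR1 and BES1. The paralogue EXL1 has been linked to growth under low carbon supply.

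The leaves came from Col-0 wild-type plants aged 3 weeks. The control group received artificial diet (sucrose and amino acids) from cups with 0 aphids, and the saliva group received diet from cups with 20 green peach aphids (Myzus persicae). Both groups were thus wounded by the syringe and loaded with sugar and amino acids, and no group of untreated leaves is among the samples. Any other change that feeding aphids made to the diet cannot be told apart from saliva in these samples. RNA of 18 leaves from 6 plants was pooled per sample 24 h after infiltration, and each of the 3 repeats gave 1 control and 1 saliva array (Affymetrix ATH1, 1 colour). Plants of the 2 treatments grew in shared pots, so arrays of a repeat were treated as a pair. The labels do not say whether the plant batches of the repeats were sown separately. The p-values rest on the spread between these 3 pairs, which limma moderates over all probe sets, and they measure no wider spread.

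The arrays were on a like scale, with a median intensity between 139 and 147. Of 28 marker genes fixed for leaf, guard cell and other tissues, only 2 had a named probe set. Rubisco activase (RCA), which keeps Rubisco active in green leaf cells, had a mean log2 intensity of 14.74 in both groups, a signal above that of 99.8% of all probe sets in the controls. FAMA, a transcription factor of guard cell differentiation, had a mean of 5.88 in controls and 6.07 after saliva, with pair differences of 0.57, 0.22 and -0.21. The markers of epidermis, phloem, xylem, root, flower and meristem were not analysed here, so the part of a shift in cell types in the EXO values was not tested. In pooled leaf RNA, more EXO-expressing cells and more EXO transcript per cell cannot be told apart.

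EXO was higher after saliva than after control diet in each of the 3 repeats. On the control arrays its normalized intensity was 353.42 in repeat 1, 281.67 in repeat 2 and 356.77 in repeat 3. On the saliva arrays it was 565.45, 976.63 and 918.84 in the same order. The groups did not overlap, and the lowest saliva array, that of repeat 1, lay 0.66 above the highest control array on the log2 scale. Across all probe sets, 7.66% had each saliva array above each control array, and 8.58% had each saliva array below each control array.

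**Figure D1:**
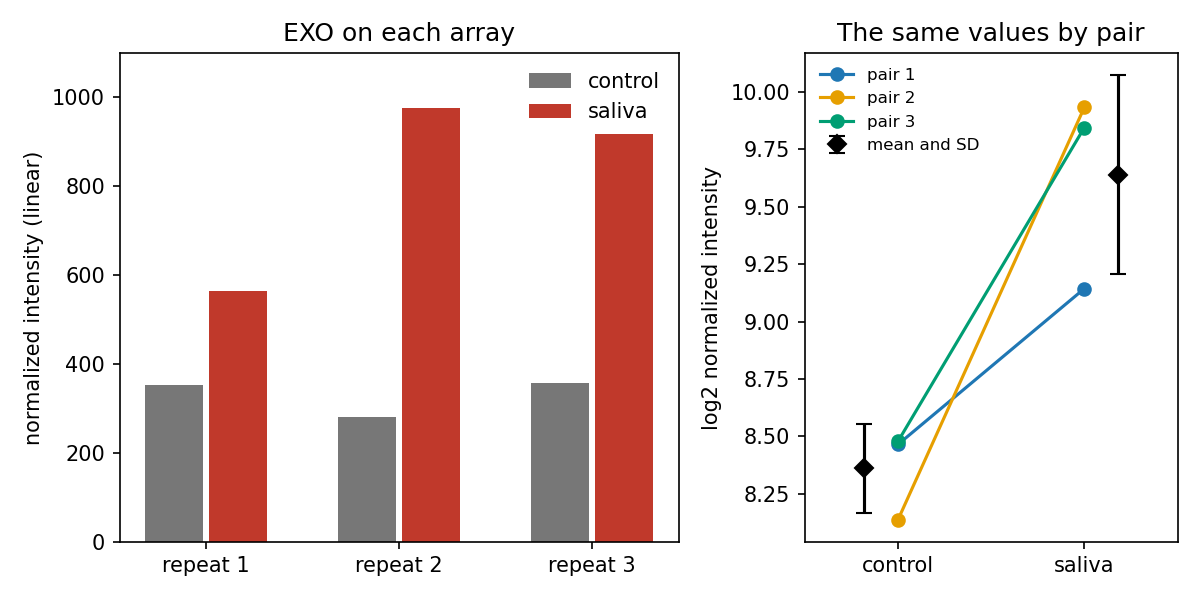
Left, normalized intensity of EXO (linear scale, from 0) on each of the 6 arrays, with control in grey and saliva in red. Right, the same values as log2 intensity with a line per pair, and the mean with its SD over 3 arrays as a diamond. Control arrays lie between 281.67 and 356.77 and saliva arrays between 565.45 and 976.63, with the smallest difference in pair 1.

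As log2 intensity, the mean level of EXO was 8.36 ± 0.19 (SD, n = 3) in controls and 9.64 ± 0.43 (SD, n = 3) after saliva. The difference, saliva minus control, was 0.68 in pair 1, 1.79 in pair 2 and 1.36 in pair 3. Its mean was 1.28 ± 0.56 (SD, n = 3 pairs), a 2.43-fold higher intensity, with 1.60-fold, 3.47-fold and 2.58-fold in the single pairs. The raw file names in the labels set repeat 1 apart from repeats 2 and 3, and the difference in the latter 2 pairs alone was 1.58. Repeat 1 gives 1 pair and so no spread of its own.

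The EXO probe set was not among the dim ones on the control arrays. The lowest intensity of an array was between 3.23 and 3.28, and EXO's mean control intensity exceeded that of 69.6% of the probe sets. Probe sets differ in their response to transcript, so this places the signal and not the transcript amount. On the single arrays EXO stood above 70.9%, 66.6% and 71.5% of probe sets in controls 1, 2 and 3. It stood above 79.1%, 86.9% and 86.3% on the corresponding saliva arrays.

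By mean difference EXO stood in place 44 of 15177, counted from the highest. By pair its place was 334, 17 and 156. The median difference over all probe sets was -0.00056, which the authors' normalization across arrays would bring near 0 whatever the treatment did. The signal of a paralogue on the EXO probe set was not tested.

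**Figure D2:**
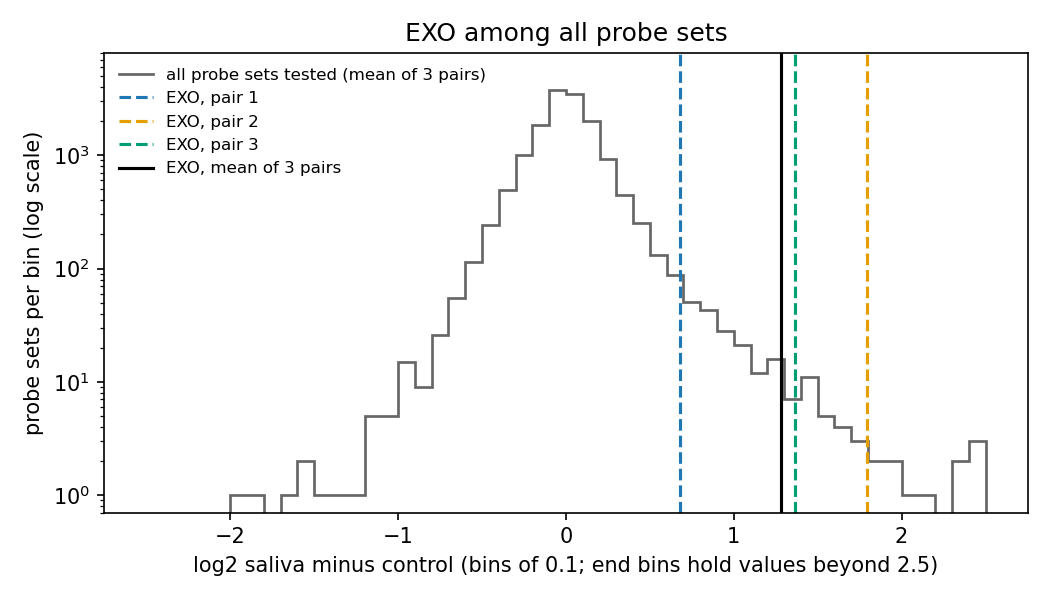
The grey outline counts all 15177 probe sets by mean log2 saliva minus control, in bins of 0.1 on a log count axis. The black line is EXO's mean of 1.28 and the dashed lines are its pairs, at 0.68, 1.79 and 1.36, all on the upper side of the distribution. The outline holds means and not single pairs, so it does not place the dashed lines. Within the single pairs EXO's place was 334, 17 and 156.

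The size of EXO's difference varied between repeats, and its spread is given here as a description, since EXO was picked on the same pair differences. The probe sets compared with it were matched on control level and not on the size of their difference. Among 2194 other probe sets whose control level lay within 0.5 (log2) of EXO's, the SD of the pair differences had a median of 0.17, and EXO's 0.56 exceeded 97.8% of them. Its SD among the saliva arrays, 0.43, exceeded that of 98.0% of the same probe sets, where the median was 0.13. Its SD among the control arrays, 0.19, exceeded that of 79.4%, with a median of 0.12. The spread was wider on the saliva side, where repeat 1 was low and repeats 2 and 3 lay close together.

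A difference between repeats that both treatments share is orthogonal to the saliva contrast, though it includes the control levels that helped to pick EXO. The mean of control and saliva was 8.80 in repeat 1, 9.03 in repeat 2 and 9.16 in repeat 3, a range of 0.36, against a median range of 0.17 for the 2194 probe sets at its level. It did not pass the limma F test (adjusted p = 0.958, Benjamini-Hochberg over all probe sets). In that test 0 of 15177 probe sets passed, 0%, and 747 had an unadjusted p under 0.05, 4.92%. The error of this test combines the spread of EXO's own pair differences, which was wide, with a value that limma estimates over all probe sets. The result therefore does not show that the repeats were alike.

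In the paired limma fit of saliva against control, EXO was not among the calls at an adjusted p under 0.05. The fit called 0 of 15177 probe sets higher, 0%, while 1674 (11.0%) had an unadjusted p under 0.05 in either direction. Without the pairs limma also called 0, with 1760 at an unadjusted p under 0.05 (11.6%). The table that the authors deposited gives EXO a fold change of 2.48, a ratio of linear means, with a paired false discovery rate of 0.0414 and an unpaired one of 0.225. A fold above 1 together with a paired rate under 0.05 was held by 1.41% of the probe sets in the authors' deposited table. These rates come from the contrast that picked EXO, so nothing is read from them here.

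The 5 genes most like EXO were all higher after saliva in each pair, as were 16.7% of all probe sets. That direction follows from the choice, since EXO itself differed mainly between the treatments. They were the single-locus probe sets with the highest Pearson r to EXO over the 6 arrays, among 338 with a mean log2 intensity of at least 5 and a range of at least 1. AT4G27450, which encodes an aluminium-induced family protein with YGL and LRDR motifs, had r = 0.990. Its pair differences of 0.67, 1.82 and 1.50 lay beside EXO's 0.68, 1.79 and 1.36. Its log2 intensity was 8.50, 7.92 and 8.35 on the control arrays and 9.17, 9.74 and 9.85 on the saliva arrays. It thus shared with EXO the low control array of repeat 2 and the low saliva array of repeat 1, a match that the choice by r favours.

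AT2G30930 had r = 0.975 and pair differences of 0.52, 0.92 and 0.75. AT5G24010, a receptor-like kinase of the malectin-domain family named after CrRLK1 of Catharanthus roseus, had r = 0.943 and differences of 0.17, 1.06 and 0.44. DPL1, the lyase that breaks down phosphorylated sphingoid bases, had r = 0.930 and differences of 0.27, 1.05 and 0.94. In each of these 3 genes pair 1 gave the smallest difference and pair 2 the largest, the same order as in EXO. A choice by r over the same arrays favours that order. AT1G68440 had r = 0.923 with differences of 0.33, 0.77 and 1.09, so its largest was in pair 3.

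These correlations describe 6 arrays in 2 treatment groups, and much of each r is the shared step between the groups. With the group means taken out, r to EXO was 0.932 for AT4G27450, 0.829 for AT2G30930, 0.828 for AT5G24010, 0.596 for DPL1 and 0.510 for AT1G68440. The r that picked the genes includes these deviations, so such values follow in part from the choice. The median r over the 338 probe sets was 0.14, and the next gene after these had 0.921, so the end of the list is no sharp boundary. None of the 5 genes was called in the paired limma fit, which called 0 of 15177 probe sets (0%) in either direction.

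**Figure D3:**
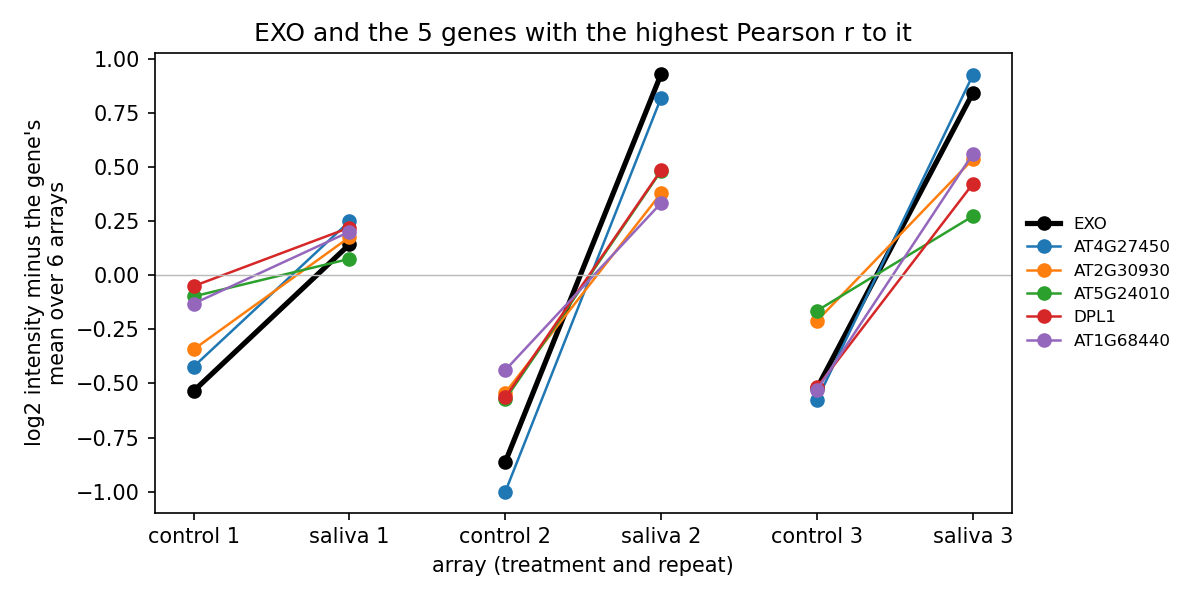
Log2 intensity of EXO (black, thick) and of the 5 genes with the highest r to it, each minus its own mean over the 6 arrays, with the 2 arrays of a repeat joined. AT4G27450 lies nearest to EXO on the saliva arrays of repeats 2 and 3, and each of the 6 genes is higher on the saliva array of each repeat.

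The loci on either side of EXO on chromosome 4 (order of RefSeq assembly TAIR10.1) were not higher after saliva in each pair. AT4G08940, the preceding locus, had differences of -0.048, 0.58 and -0.75, at a mean log2 level of 4.80 in controls. AT4G08960, the following locus, had 0.46, 0.068 and -0.24, at a control level of 6.84. Both changed sign between pairs, and their means of -0.074 ± 0.66 and 0.096 ± 0.35 (SD, n = 3 pairs) were smaller than their spread. Neither was called, as held for all probe sets tested. Both means changed sign with 1 pair left out (AT4G08940 at 0.26 without pair 3, AT4G08960 at -0.086 without pair 1). Their difference from EXO was not tested.

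Brassinosteroid and carbon supply genes were read beside EXO because of the family's known links to both. Of 69 genes in 5 lists, 5 had a named probe set, and the paired limma fit called 0 of these higher and 0 lower, beside 0% of all probe sets in each direction. For brassinosteroid perception and signalling 1 of 23 was measured, for responsive genes 2 of 13, and for synthesis and breakdown 0 of 12. Of 4 genes listed for lower transcript in exo mutants, 0 were measured, and for carbon starvation the count was 2 of 17.

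The brassinosteroid genes measured are given singly, and for EXPA8 and BRH1 the sign of the mean difference depended on the setting. BIM1, a partner of BES1 in DNA binding, was lower in each pair, with differences of -0.026, -0.12 and -0.24 from a control level of 7.90. Among all probe sets 15.6% were lower in all 3 pairs. EXPA8, an expansin that loosens cell walls, had 0.097, -0.0075 and -0.61 from a high control level of 10.79, so the sign of its mean of -0.17 rested on pair 3 (0.045 without it). BRH1, a RING-H2 protein gene whose transcript brassinosteroids lower, had -0.35, 0.21 and -0.25, and its low control array of repeat 2, at 8.59 against 9.23 and 9.09, gave the positive pair. Its mean was -0.13, and 0.017 with array weights. Since the list of responsive genes mixes genes that the hormone raises and lowers, no summary over EXPA8 and BRH1 is given. The list was first named for induced genes and was renamed after BRH1's values had been seen, with its members unchanged.

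The carbon supply genes measured were both above 0 in each pair, as were 16.7% of all probe sets. BZIP53, a transcription factor of energy and amino acid metabolism, had differences of 0.13, 0.35 and 0.43, with a mean of 0.30 ± 0.16 (SD, n = 3 pairs). AKINBETA1, a beta subunit of the energy-sensing kinase SnRK1, had 0.43, 0.81 and 0.011, with a mean of 0.42 ± 0.40 that fell to 0.22 without pair 2. The size in pair 2 was its largest, as for EXO, while its pair 3 was near 0. With 2 of 17 genes measured, these values do not describe the list.

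**Figure D4:**
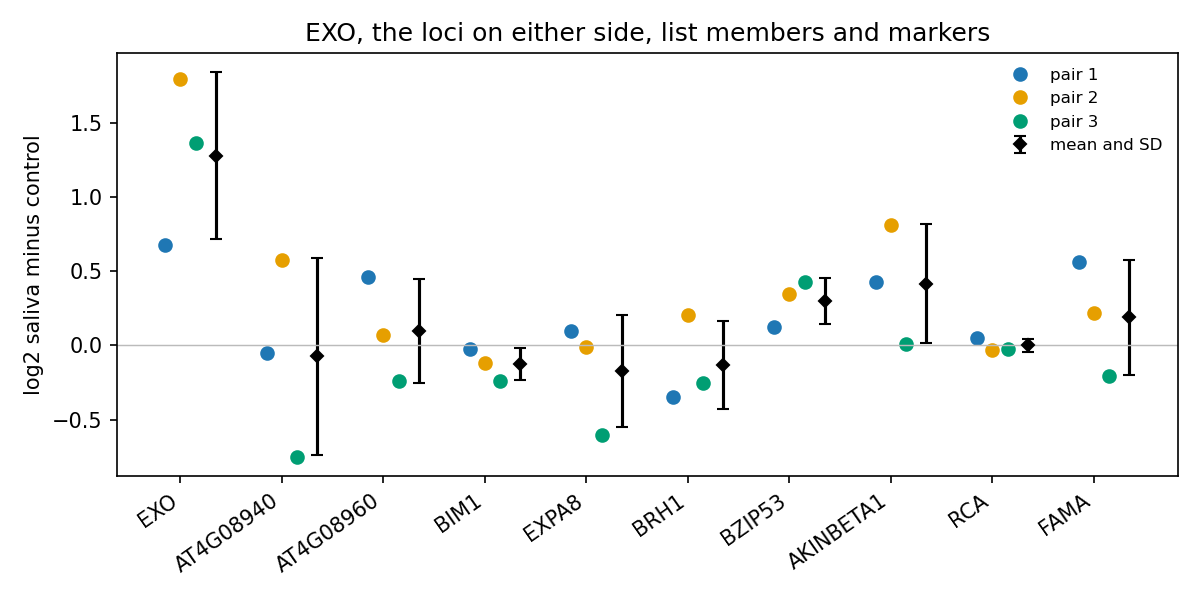
Log2 saliva minus control per pair (coloured points) and the mean with its SD over 3 pairs (diamond) for EXO, the loci on either side of it, the 5 list members measured and the markers RCA and FAMA. EXO's 3 points lie between 0.68 and 1.79, and those of RCA between -0.028 and 0.052.

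RNA integrity was read from the control transcripts on the same arrays. The log2 difference of 3′ minus 5′ probe sets, averaged over actin, GAPDH and ubiquitin, was taken as saliva minus control within each pair. It was -0.065 in pair 1, 0.095 in pair 2 and 0.012 in pair 3. This average was lowest in pair 1 and highest in pair 2, as was EXO's difference, while actin and ubiquitin were lowest in pair 3 and GAPDH was highest there, so no single transcript had EXO's order. The part of RNA integrity in the EXO result was not tested. The single readings ran from -0.27 for GAPDH in pair 1 to 0.18 for ubiquitin in pair 2.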

How the data were processed

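Total RNA of 6 pooled leaf samples was read on 1 ATH1 array each. The values the authors deposited are linear intensity, already normalized. The submitters' processing notes name GCRMA, GCOS and limma; their versions, order and roles are not given in the sources used here. Both deposited tables held the same array values (0 cells differed). The authors also deposited a fold ratio and false discovery rates (adjusted p-values), per the file headers.

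No pseudocount was added before log2 was taken. Of 15236 probe sets deposited, the 59 Affymetrix control probe sets were left out, which left 15177. Shares and places are among these deposited probe sets and not among all that the array may carry. The probe annotation gave 1 gene for 8330, several for 334 and none for 6513, and 8298 of the 8330 were found in the RefSeq table (TAIR10.1). The files name no genome build, so no coordinates are printed. Columns of per-sample values left unused numbered 0, and at most 2.11% of values were equal between arrays.

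limma 3.58.1 in R 4.3.3 was fitted to all probe sets with treatment and the repeat as a block, after the shared pots named in the labels' protocols, with Benjamini-Hochberg adjustment at 0.05. Deviations from the group means correlated across probe sets by -0.12, 0.15 and 0.10 between arrays of pairs 1, 2 and 3. Differences between repeats were tested by the F test of the same fit. The fits were tested on simulated data. Precision is limited by the number of arrays. The gene, the lists and the tests were chosen with earlier results of these data known. Named genes are EXO, the measured list members and the 5 genes with the highest r to EXO, by a rule on level and range; the flanking loci and the integrity readings were added after the data were seen.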

Additional observations from a re-analysis of the deposited data

How the results depend on the processing

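EXO's mean difference of 1.28 on the log2 scale kept its sign in each setting tried. Both quantile normalization and median centring gave 1.26. It was 1.51 with array weights and 1.31 as the log2 of the fold in the authors' deposited table. With a pair left out it ran from 1.02 without replicate 2 to 1.58 without replicate 1. As all 3 pairs were above 0, no such run could change its sign. By construction the mean stays the same without the block, without dim probe sets, with an intensity trend and with an estimated block correlation. With no replicate block limma called 0 probe sets higher and 0 lower, with EXO at 1.28, as with it. These counts were also 0 with probe sets under a mean log2 of 4 left out, an intensity trend in eBayes, both normalizations, array weights, each pair left out, an adjusted p under 0.1 and an estimated block correlation, the last added after the data were seen. The counts of list members and of probe sets differing between repeats stayed at 0 in the settings run for them. The range of EXO's repeat means, 0.36, became 0.38 with quantile normalization and 0.41 with median centring. Of the other 14 named genes, 5 changed sign in at least 1 of 10 settings, none of them among the 5 most like EXO. The settings that keep EXO's mean by construction also kept the mean of each named gene, so they could not change a sign. The 5 most like EXO were above 0 in each pair, so leaving out a pair could not change their sign. Array weights took AT4G08940 to 0.20 and BRH1 to 0.017. Without replicate 3 AT4G08940 was 0.26 and EXPA8 was 0.045, and without replicate 1 AT4G08960 was -0.086. With the sign kept, leaving out a pair also moved means by over 1.5 times. Without replicate 2 AKINBETA1 went to 0.22, AT5G24010 to 0.31, AT4G08940 to -0.40 and RCA to 0.015. Without replicate 3 BIM1 went to -0.071, AT4G08960 to 0.26 and RCA to 0.012. EXPA8 went to -0.31 without replicate 1. BRH1 ran between -0.30 and -0.023, and FAMA between 0.0035 and 0.39. RCA, at 0.00087, turned to between -0.025 and -0.013 in 3 settings; the cause was not tested. A second probe set for EXO was not run because the annotation names 1.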
